A study of Mus musculus with 2 samples.

Results

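The olfactory receptor genes are the largest gene family of the mouse genome, and their methylation was read from whole-genome bisulfite sequencing of the epiblast at embryonic day 6.5. Members were all autosomal protein-coding RefSeq genes whose symbol is Olfr followed by digits. This gave 1100 genes of 20665 autosomal protein-coding genes, spread over 16 chromosomes. The samples were 2 wild-type C57Bl6/J female (XX) epiblasts from natural matings, with no culture, dissected away from extraembryonic tissue that was used for sexing by PCR. Both belong to 1 group, no group was treated or mutant, and whether a sample held 1 embryo or several is not given in the sources used here. The deposited values form a single table of methylated and unmethylated read counts per CpG with no column per sample. No error between replicates could be computed, and no p-value is given. The interval given with a level is the exact Clopper-Pearson interval of 95% for its methylated share of read counts, and it reflects counting error only.

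Each olfactory neuron transcribes 1 allele of 1 receptor gene, and the silent remainder is held in heterochromatin. The receptors are G protein-coupled receptors of the nasal epithelium, most with a coding sequence in a single exon, and the genes sit in tandem clusters. Class I receptors, the group shared with fish, form 1 cluster on chromosome 7 that flanks the beta-globin genes, and class II receptors make up the rest. The epiblast is the pluripotent tissue that will form the embryo, and at this stage its genome has regained most of the methylation lost after fertilisation. Methylation of CpG pairs is usually high across most of the genome and low at CpG-rich promoters.

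The class I set was the chromosome 7 cluster from Olfr543 to Olfr692 (chr7:102476773-105369317), with 126 genes, against 974 of class II. The rule was checked against older family names in the gene table. Of the 122 class I genes with such a name, 120 were in families 1 to 42, the class I families, whereas 2 of 955 class II genes were. Gene models had a median span of 950 bp, and 795 of 1100 had the length of a bare coding sequence, so for most members the annotated start is the start codon and not the transcription start. The strand came from RefSeq start windows for 934 members and was not known for 166.

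The sequences around the starts show how little CpG there is to methylate. RefSeq windows on GRCm38.p6, from 250 bases before to 50 bases after the annotated start, covered 934 members with 938 windows. Of these, 315 held no CpG and 314 held 1, and the fullest held 13. The windows below were picked after their values were seen, to show the lowest body, its neighbour, the fullest window, and low and high windows of each class. They run 5′ to 3′ on the gene's strand, and capitals mark each CpG.
Olfr94: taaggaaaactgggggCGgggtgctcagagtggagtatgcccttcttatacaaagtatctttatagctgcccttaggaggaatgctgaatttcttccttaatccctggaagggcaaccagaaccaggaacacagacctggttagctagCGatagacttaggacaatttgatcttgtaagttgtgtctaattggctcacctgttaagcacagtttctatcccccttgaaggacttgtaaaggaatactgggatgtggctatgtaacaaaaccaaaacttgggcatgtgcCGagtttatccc
Olfr95: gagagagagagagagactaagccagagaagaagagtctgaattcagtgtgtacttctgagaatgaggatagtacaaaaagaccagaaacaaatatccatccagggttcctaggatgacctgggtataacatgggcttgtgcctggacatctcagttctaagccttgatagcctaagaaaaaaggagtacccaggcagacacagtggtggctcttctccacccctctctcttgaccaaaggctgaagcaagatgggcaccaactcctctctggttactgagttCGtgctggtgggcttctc
Olfr212: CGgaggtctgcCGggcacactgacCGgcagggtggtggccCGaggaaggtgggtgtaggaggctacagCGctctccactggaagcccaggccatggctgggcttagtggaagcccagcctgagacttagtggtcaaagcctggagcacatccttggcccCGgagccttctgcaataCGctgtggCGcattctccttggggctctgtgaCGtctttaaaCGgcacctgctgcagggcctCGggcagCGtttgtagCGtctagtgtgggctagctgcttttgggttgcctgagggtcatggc
Olfr1349: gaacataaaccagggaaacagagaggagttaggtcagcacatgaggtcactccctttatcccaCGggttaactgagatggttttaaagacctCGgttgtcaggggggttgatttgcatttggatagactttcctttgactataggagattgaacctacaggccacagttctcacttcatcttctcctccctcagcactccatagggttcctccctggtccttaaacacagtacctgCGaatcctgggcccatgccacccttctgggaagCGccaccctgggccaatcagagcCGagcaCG
Olfr1342: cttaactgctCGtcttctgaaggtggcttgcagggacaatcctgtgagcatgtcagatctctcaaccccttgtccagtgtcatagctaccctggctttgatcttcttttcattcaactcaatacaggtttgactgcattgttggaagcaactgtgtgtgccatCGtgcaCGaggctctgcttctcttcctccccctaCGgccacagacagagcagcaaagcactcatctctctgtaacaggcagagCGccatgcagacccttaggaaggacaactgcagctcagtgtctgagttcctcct
Olfr599: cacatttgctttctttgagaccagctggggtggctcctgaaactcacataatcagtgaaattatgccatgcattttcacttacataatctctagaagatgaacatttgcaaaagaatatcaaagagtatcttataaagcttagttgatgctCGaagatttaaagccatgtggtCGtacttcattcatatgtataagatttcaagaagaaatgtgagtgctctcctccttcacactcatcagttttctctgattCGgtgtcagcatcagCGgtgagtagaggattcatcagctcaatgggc
Olfr648: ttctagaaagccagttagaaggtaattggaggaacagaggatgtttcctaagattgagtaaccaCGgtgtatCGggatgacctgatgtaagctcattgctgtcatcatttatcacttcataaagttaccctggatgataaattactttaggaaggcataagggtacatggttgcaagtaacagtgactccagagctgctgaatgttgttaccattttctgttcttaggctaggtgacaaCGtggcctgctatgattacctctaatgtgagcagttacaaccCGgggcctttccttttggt

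The Olfr94 window (chr17:37197917-37198216, minus strand) had 14 of 23 read counts methylated over 3 CpGs. The Olfr95 window (chr17:37211802-37212101, minus strand) held 1 CpG, 33 bases into the model, with 5 of 10 read counts methylated. The 13 CpGs of the Olfr212 window (chr6:116506266-116506565, plus strand) gave 68 of 82 methylated, or 82.9% (73.0 to 90.3). This fullest of the short windows was methylated, whereas in the wider 1 kb start windows Olfr94 and Olfr95 held 28 and 27 CpGs and were at 13.7 and 17.3%. Among windows with 20 or more read counts, Olfr1349 was the lowest, with 16 of 42 methylated (38.1%, 23.6 to 54.4) over 6 CpGs (chr7:6515378-6515677, minus strand). Olfr1342 (chr4:118690401-118690700, minus strand) had 43 of 48 methylated over 5 CpGs, or 89.6% (77.3 to 96.5). In class I, Olfr599 (chr7:103337762-103338061, plus strand) was the lowest with 11 of 22 methylated, and Olfr648 (chr7:104180357-104180656, minus strand) was high with 20 of 22. The intervals of these class I windows, 28.2 to 71.8% and 70.8 to 98.9%, touch because each rests on so few reads.

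Only 60 windows reached 20 read counts, with a median of 71.0%. Their letters also differed from those of other genes, as a description with no test. TATAAA, read on both strands, was in 41.3% of the receptor windows against 13.6% of all 31396 autosomal start windows. TAATTA, the core letters bound by homeodomain proteins, was in 18.8% against 5.27%. CCCNNGGG, the core letters of sites for early B-cell factors, was in 3.09% against 13.9%, and in 7.22% of the receptor windows that do not begin a coding-length model. A CpG was present in 66.4% against 94.8%. Receptor windows held a median of 1 CpG against 7, and the 2 sets were not matched for CpG or base content. These shares therefore do not show a gain or loss of binding sites. Whether base content accounts for them was not tested. The 2 letters of a CpG read alike on both strands, and the other motifs do not contain it unless their N letters supply it. Of 661 windows of coding-length models, 626 had ATG at the annotated start, so these windows lie around start codons and may miss the promoter.

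Across the bodies, methylation was high and narrowly spread. A body is the full span of the gene model, and 884 of 1100 reached 20 read counts. The 216 others included 6 with CpGs but no read and 2 without a CpG at the coordinates given. One of these is Olfr883. The other, Olfr100, has coordinates in the gene table that lie before the first CpG listed for its chromosome, so its lack of CpGs says nothing about the gene. The median body level was 71.8%, the middle 50% of bodies lay between 64.8 and 77.6%, and the extremes were 4.84 and 97.3%. In all, 849 bodies (96.0%) lay between 50 and 90%, 25 lay below 50% and 10 above 90%. The SD between bodies was 10.2 points and the SD that counting alone gives was 6.57 points. Subtracting the squares leaves an SD of 7.74 points beyond counting. The counting SD takes all read counts as independent. Reads that cover several CpGs would make it too small and the remainder too large. In 441 bodies with 20 or more read counts on each strand, the strand difference had an SD of 10.8 points, against 9.70 from counting. Bodies just inside the read minimum, with 20 to 22 read counts, ran from 33.3 to 90.5% around a median of 70% (n = 58). Those just outside, with 18 to 19, ran from 47.4 to 94.4% around 66.7% (n = 41).

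A body was called high when its interval lay wholly above 60%, low when wholly below 20%, intermediate when between these values, and unresolved otherwise. By this rule 391 receptor bodies were high (44.2% of the 884), 7 were intermediate, 1 was low and 485 were unresolved. Over all autosomal protein-coding bodies 53% were called high, 28.4% intermediate and 4.96% low. The median receptor body had 42 read counts and an interval 24.7 points wide, and other protein-coding bodies had 2146 read counts and 3.83 points. Among bodies with at least 50 read counts and 5 CpGs with a read, the order of the shares turned. In that set 294 of 477 receptor bodies were high (61.6%), against 54.1% of all 19105 protein-coding bodies.

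**Figure D1:**
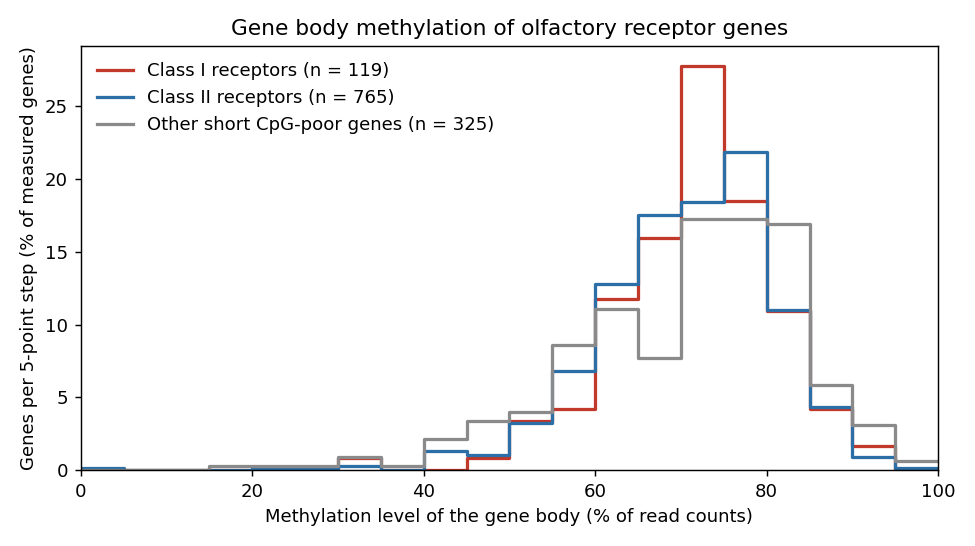
Share of measured genes (vertical axis, percent) in each 5-point step of gene body methylation (horizontal axis, percent of read counts) for class I receptors, class II receptors and other short CpG-poor genes. All 3 outlines peak between 70 and 80%, and the medians are 73.2, 71.4 and 73.2%.

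The level resembled that of other short genes with few CpGs. Of 640 other protein-coding models of at most 1500 bp with fewer than 20 CpGs per 1 kb, 325 were measured, with a median of 73.2% and a middle 50% from 62.2 to 80.0%. Among these, 88.6% lay between 50 and 90%. All other protein-coding bodies had a median of 64.4%. The other clustered chemoreceptor families lay nearby. Vomeronasal receptors had medians of 69.0% (Vmn1r, 84 of 230 measured) and 66.4% (Vmn2r, 114 of 122). Bitter taste receptors (Tas2r) had 72.5% (14 of 35) and trace amine receptors (Taar) 76.4% (10 of 15). Vmn1r, Tas2r and Taar genes are also among the 325 short CpG-poor models above, so these comparisons overlap. Read depth differed between the families. Receptor bodies had 6.12 read counts per CpG with 10.9% of CpGs unread, while Vmn1r had 3.58 with 32.7% and Vmn2r 3.34 with 32.2%.

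The annotated starts of receptor genes did not dip. The 1 kb window centred on the start was measured in 511 members, with a median of 72.7%, and 191 were high, 3 intermediate, 1 low and 316 unresolved. Over all autosomal protein-coding start windows 16.1% were called high, 5.06% intermediate and 59.8% low, and the median of the other protein-coding genes was 8.95%. CpG content also differed, with a median of 5 CpGs in receptor windows against 43. Of receptor start windows, 97.9% were CpG-poor (fewer than 20 CpGs), and 0 reached the 40 CpGs of a CpG-rich window. The start windows of other short CpG-poor genes (246 measured) had a median of 72.2%, and 44.3% were high. At the other end of the model the median was 72.5% over 542 windows, with 214 high (39.5%), 9 intermediate, 1 low and 318 unresolved. Over all genes 68.3% of these windows were called high, 3.9% intermediate and 2.98% low. The median of the other protein-coding genes was 80%, and that of other short CpG-poor genes 71.4% (286 measured). These shares are not matched for depth, with a median of 24 read counts in receptor windows against 68 in other protein-coding genes. In the 378 members with both windows measured, the start was higher in 185 and lower in 193, with a median difference of -0.801 points.

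In 500 bp steps from 5000 bp before the start to 5000 bp after it, class II genes stayed between 68.8 and 71.6% (825 genes). Class I genes stayed between 65.8 and 75.1% (109 genes). Their lowest step lay 1000 to 500 bp before the start and the highest was the first 500 bp of the model. Steps further off were nearly as low, such as 66.3% from 3000 to 2500 bp before the start. Over 5114 other CpG-poor starts, the steps just before and just after the start were at 67.1 and 63.1%. From 500 to 1000 bp after the start they fell to 44.1%, and their lowest step, at 34.2%, lay 1500 to 2000 bp after it. These genes were chosen for few CpGs within 500 bp of the start. That choice left out CpG-rich stretches there, so the place of the low steps is no result. Vmn1r genes (205 genes) were lowest in the 500 bp before the start, at 40.4%, followed by 57.1% in the 500 bp after it. Their other steps ran from 65.2 to 74.3%. The steps are pooled over reads, so genes with many CpGs weigh most in them. The median Vmn1r start window was at 70.4% (31 measured).

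Class I and class II lay close together. Class I bodies had a median of 73.2% (119 measured, 69 high) and class II bodies 71.4% (765 measured, 322 high), a difference of 1.79 points. With no replicates, this difference has no error of its own. The class I genes carried more CpGs, 10.6 per kb against 6.35. Within steps of CpG density the order was not constant. At 5 to 10 CpGs per kb, class I had 69.3% and class II 71.9%. At 10 to 15 they had 73.9 and 73.6%, at 15 to 20 they had 74.4 and 77.2%, and from 20 they had 76.5 and 76.4%. Density and level moved together within class II, from 66.7% below 5 CpGs per kb to 76.4% from 20. Within the class I cluster, the 73 genes on the lower-coordinate side of the globin genes had a median of 74.0% (68 measured), and the 53 on the other side had 71.7% (51 measured). The 5 globin genes between them, which encode beta chains of haemoglobin, had 73.5%.

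The DNA between the receptors was methylated to about the same level. The cluster background of a gene was the level of its 100 kb bin with every olfactory receptor gene and 500 bp around it left out. Bins that held receptors had a median of 70.4% (338 bins, 29.2 to 79.4%), and the other 23645 autosomal bins had 70.2%. Fewer receptor bins were low: 7.40% lay under 60%, against 15.95% of the others. Receptor bins also held fewer CpGs, with a median of 4.855 per kb against 7.82. Receptor bodies exceeded their background by a median of 2.29 points, with 520 above and 364 below. Other short CpG-poor genes exceeded theirs by 2.96 points.

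Most bodies in low bins were not low themselves. In bins under 50% methylated, with a median background of 42.2%, the 8 receptor bodies had a median of 72.7%. Of these, 6 lay between 69.3 and 81.4%, while Olfr1368 (28.9%, bin at 34.7%) and Olfr466 (42.3%, bin at 42.7%) were near the level of their bins. Olfr466 was named after its values were seen. In bins of 75% or more, with a median background of 76.6%, the 55 bodies had 75%. The other short CpG-poor genes did likewise, with 74.5% over 13 bodies and 77.9% over 52. Spearman's rho between body and background was 0.141 across 884 genes, which share bins and one library table, so it is a description only.

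**Figure D2:**
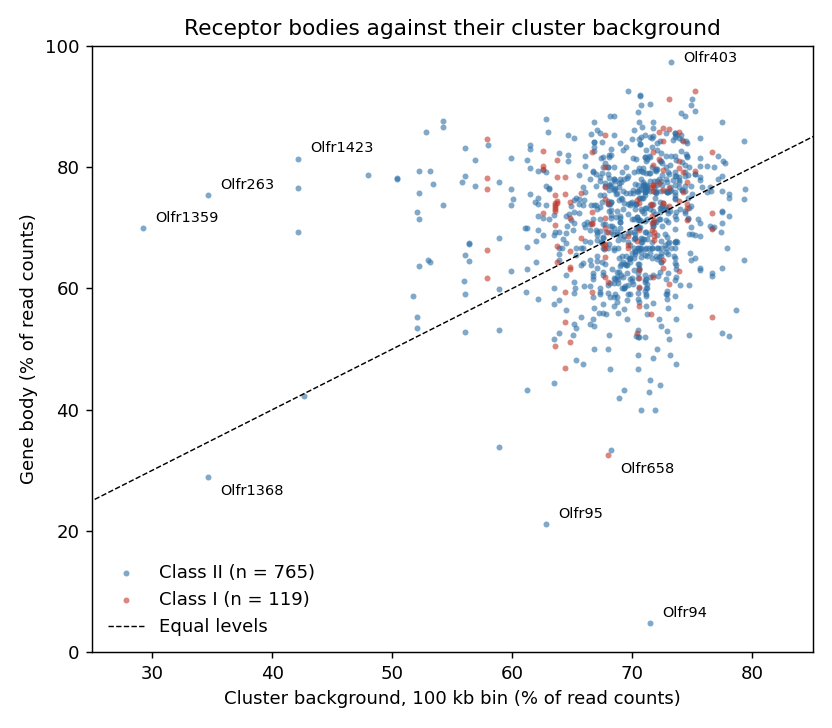
Body level (vertical axis) against cluster background (horizontal axis), both in percent of read counts, with 1 point per measured receptor and a dashed line of equality. Most points form 1 cloud around 70% on both axes, Olfr94 and Olfr95 lie far below the line, and the bodies in low bins, such as Olfr1359, Olfr263 and Olfr1423, lie far above it.

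The bodies furthest above their background lay in low bins. Olfr1359 (14 of 20 read counts methylated, 70%) lay 40.8 points above its bin of 29.2%. Olfr263 (49 of 65, 75.4%) lay 40.7 points above a bin of 34.7%, but in 50 kb bins the difference was -0.720 points. Olfr1423 (81.4%) and Olfr1427 (76.6%) share a bin of 42.2%, from which they differ by 39.3 and 34.4 points, and in 50 kb bins Olfr1427 differed by -1.53 points. Olfr1511 (87.6%) lay 33.4 points above its bin of 54.2%, and 10.3 points above it in 50 kb bins. The distances of Olfr1359 and Olfr1423 were 41.5 and 47.2 points in 50 kb bins, so of these 5 genes 3 depended strongly on the width of the bin.

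Clusters were made of members less than 1.0 Mb apart. Of 48 clusters, 29 had at least 5 measured members, and these held 1065 members, 851 of them measured. Their median body levels ran from 65.2 to 81.3%, and 22 of 29 medians lay above the median background of the same cluster. The lowest was the chromosome 9 cluster from Olfr24 to Olfr18, at 65.2% (23 measured) beside a background of 71.0%. It was followed by the chromosome 10 cluster from Olfr1358 to Olfr57 at 65.8% (8 measured) and the chromosome 7 cluster from Olfr1344 to Olfr1350 at 67.2% (8 measured). The highest was the chromosome 4 cluster from Olfr70 to Olfr155 at 81.3% (6 measured), beside a background of 60.6%. Next were the chromosome 11 cluster from Olfr1396 to Olfr1380 at 77.9% (18 measured) and the chromosome 4 cluster from Olfr62 to Olfr1328 at 77.8% (13 measured). The middle 50% of bodies ran from 62.3 to 72.3% in the lowest cluster and from 77.5 to 82.0% in the highest. Both were picked as the extremes of these same levels, so the gap between them is no test. Their bodies also differed in CpGs, with medians of 7 and 24.5.

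**Figure D3:**
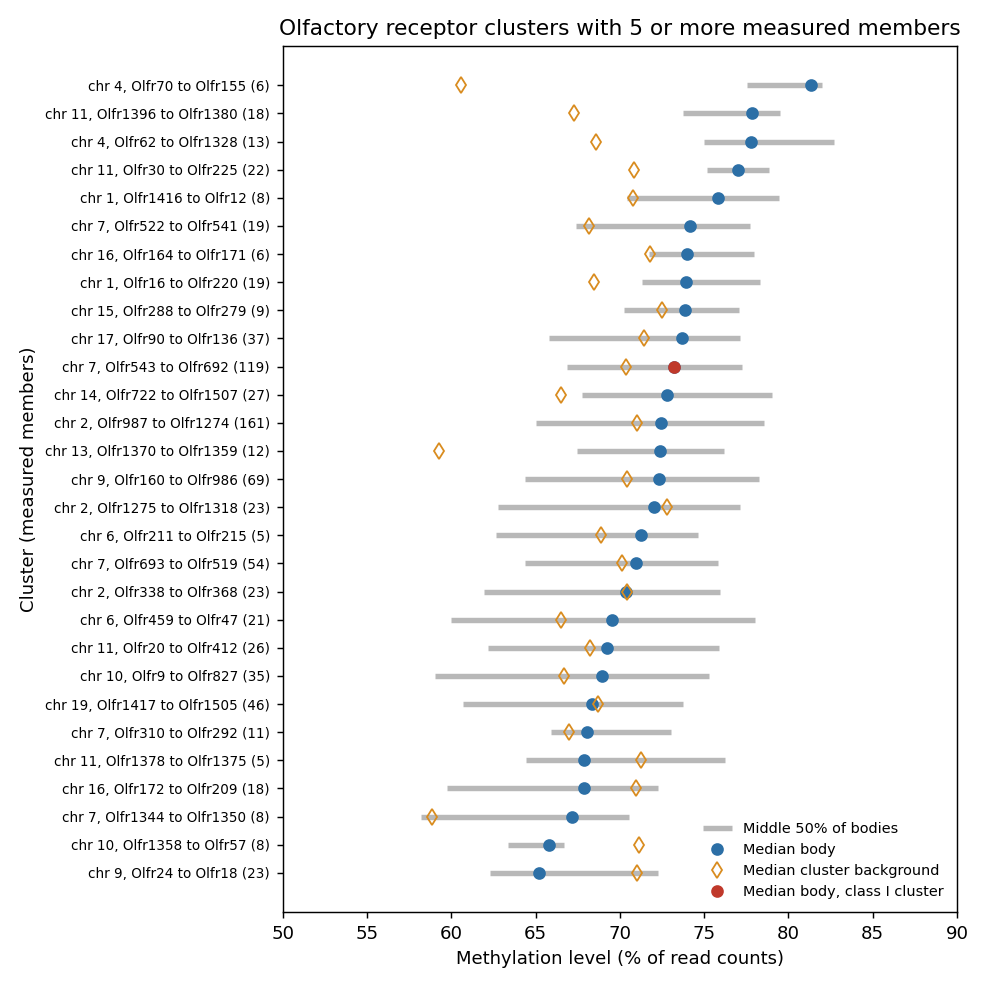
Median body level (filled points), middle 50% of bodies (grey bars) and median cluster background (open diamonds), in percent of read counts, for the 29 clusters, ordered by median body level. Cluster medians run from 65.2 to 81.3%, and backgrounds, between 58.9 and 72.8%, do not follow their order.

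One receptor was nearly unmethylated. Olfr94, on chromosome 17 (chr17:37196806-37197966, mm10, minus strand), had 71 of 1466 read counts methylated over 86 CpGs, a level of 4.84% (3.80 to 6.07), against a background of 71.5%. Its start window read 13.7% (10.1 to 17.96) over 28 CpGs. The window at its other end read 5.61% (4.15 to 7.39) over 51 CpGs, 1 of the 2 CpG-rich windows of the family. With 74.1 CpGs per kb, the body is over 10 times as CpG-dense as the typical receptor (6.46). The 3 CpGs of the start sequence printed above lie at the higher edge of this stretch, and only 1 of them is inside the model.

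Olfr95, the next receptor (chr17:37210913-37211851, minus strand), was partly methylated. It had 110 of 520 read counts methylated over 42 CpGs, or 21.2% (17.7 to 24.9), against a background of 62.8%. Its start window read 17.3% (13.5 to 21.6) and the window at its other end 31.2% (25.5 to 37.4). Pooled over the DNA between the genes, the level was higher. Over the 12.9 kb gap, leaving 500 bp at each gene, 318 of 508 read counts were methylated (62.6%, 58.2 to 66.8). A short patch of 5 CpGs inside the gap, 6949 to 7168 bp from the lower end of Olfr94 and picked out after its values were seen, had 7 of 64 read counts methylated (10.9%). Beyond Olfr94 the level was 77.7% (71.6 to 83.0), and beyond Olfr95 it was 68.1% (57.7 to 77.3). The neighbouring gene Ubd, which encodes a ubiquitin-like protein, had 84.5%, and the receptor Olfr96 had 79.2%. Both strands gave like values for Olfr94, 5.27% on the plus and 4.52% on the minus strand.

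**Figure D4:**
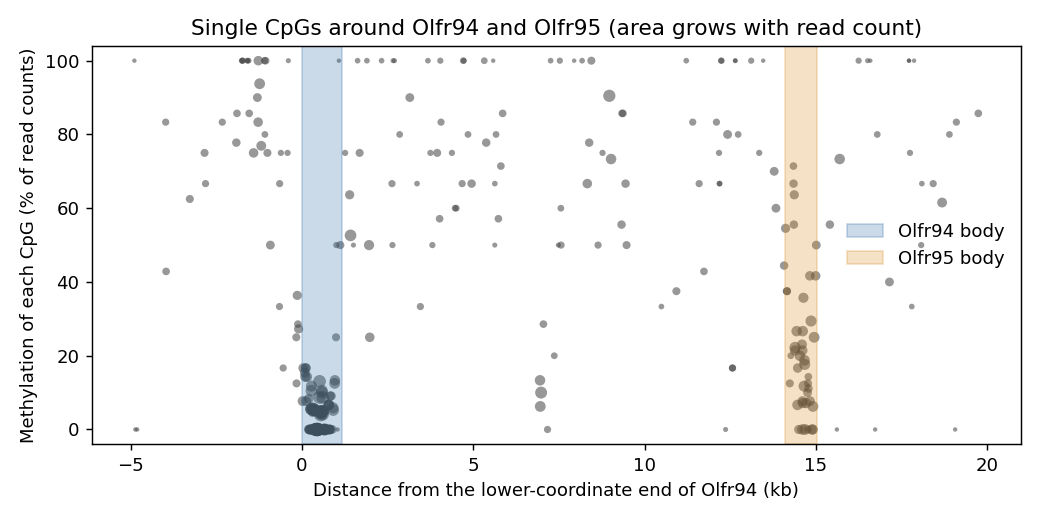
Methylation of each CpG with a read (vertical axis, percent of read counts, point area growing with read count) by distance from the lower-coordinate end of Olfr94 (horizontal axis, kb), with the bodies of Olfr94 and Olfr95 shaded. CpGs crowd near 0 inside Olfr94 and mostly below 50% inside Olfr95, and most CpGs between the genes lie higher.

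Olfr1368 on chromosome 13 had 39 of 135 read counts methylated (28.9%, 21.4 to 37.3) in a bin that was itself at 34.7%, a difference of -5.80 points. In 50 kb bins the difference was -47.2 points. The 250 bp steps of Olfr1368 were counted from the lower-coordinate end, which is the far end of this minus-strand model. The first step held 1 CpG with 5 of 8 read counts methylated, and the other 11 CpGs lay in steps at 17.02 to 33.3%. Its start window read 25% (16.6 to 35.1). Olfr658, the lowest of class I, was low over part of its length. It had 78 of 240 methylated (32.5%, 26.6 to 38.8) against 68.0%. Its model spans 4426 bp, and 2 neighbouring steps near the higher end, at 13.5 and 17.9% over 9 and 11 CpGs, hold most of the unmethylated reads, while steps elsewhere with 10 or more read counts ran from 50 to 81.8%. Olfr933 had 7 of 21 (33.3%, 14.6 to 57.0) and Olfr780 8 of 20 (40%, 19.1 to 63.9), so both rest on few reads. Olfr279 held the other CpG-rich window, at the end away from its start, with 41 CpGs and 58.7% (53.5 to 63.7). Its body, with 41.8 CpGs per kb, was at 64.2%, a difference of -9.38 points from its background of 73.6%.

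The highest bodies all rested on fewer than 50 read counts. Olfr403 had 36 of 37 methylated (97.3%, 85.8 to 99.93). Olfr593, the highest of class I, and Olfr150 each had 37 of 40 (92.5%, 79.6 to 98.4). Olfr1044 had 45 of 49 and Olfr52 had 22 of 24. Their lower bounds ran from 73.0 to 85.8%.

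Well-studied receptors ran from 52.6 to 85.8%. Of 15 listed, 14 were measured and 9 were high (64.3%), against 44.2% of all receptor bodies and 53% of all protein-coding bodies. A high call depends on depth, and these shares are not matched for it. The listed bodies had 32 (Olfr73) to 1756 (Olfr1393) read counts, against a median of 42 over receptors. With at least 50 read counts and 5 CpGs with a read, 61.6% of receptor bodies were high. Some listed models are also long, such as Olfr1393 (28487 bp) and Olfr78 (18751 bp). The remaining one, Olfr151, is a pseudogene in the annotation and so no member. Olfr2, a receptor for octanal, had 84.1% (76.0 to 90.3), and Olfr73, a receptor for eugenol, had 68.8% (49.99 to 83.9). Olfr160 had 84.8%, Olfr16, which is also expressed in sperm, 72.2%, Olfr17 71.0% and Olfr1507 71.4%. Among those with roles outside the nose, Olfr78, found in blood vessels and the carotid body, had 77.1% (73.4 to 80.5), and its neighbour Olfr558, which responds to short-chain fatty acids, had 77.1% (72.8 to 81.1). Olfr691 was the highest of the list at 85.8% (80.4 to 90.2), and Olfr1393 and Olfr90 had 78.1 and 77.2%. Olfr545 and Olfr15 were the lowest, at 52.6% (45.3 to 59.8) and 55.2% (48.1 to 62.2). Olfr545 differed from its background by -17.8 points, or -28.6 points in 50 kb bins, and was also intermediate at its start (43.4%, 33.5 to 53.8). Olfr544, its neighbour and a receptor for azelaic acid, shares the bin of 70.4% and had 74.6% (70.7 to 78.3), above Olfr545 with no overlap of intervals.

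The CpGs of receptor coding sequences sat at recurring codons. In the 661 coding-length models with a known strand, 5206 CpGs were placed from the first base of the model. Of these, 48.8% fell on bases 1 and 2 of a codon, where CG begins an arginine codon, 22.1% on bases 2 and 3, and 29.1% across 2 codons. The commonest place was codon 122 (base 364), with a CpG in 163 genes (24.7%). Codon 120 followed with 96 genes and codon 232 with 84. Class II carried the CpG at base 364 in 27.8% of 580 genes and class I in 2.47% of 81. The receptors share a conserved motif with an arginine at the inner end of a transmembrane helix, and whether codon 122 encodes it was not tested.

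Methylation did not set these codons apart. The CpGs of the first 2 codon bases were at 72.4% (71.7 to 73.1), those of bases 2 and 3 at 71.2% (70.2 to 72.2), and those across codons at 71.0% (70.1 to 71.9). At base 364 the level was 71.4% (68.5 to 74.2), at codon 120 70.2% (66.3 to 73.8) and at codon 232 75.1% (71.3 to 78.7). With the coding length cut into 10 equal parts, class II ran from 68.6 to 74.0% and class I from 69.3 to 77.9%.

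**Figure D5:**
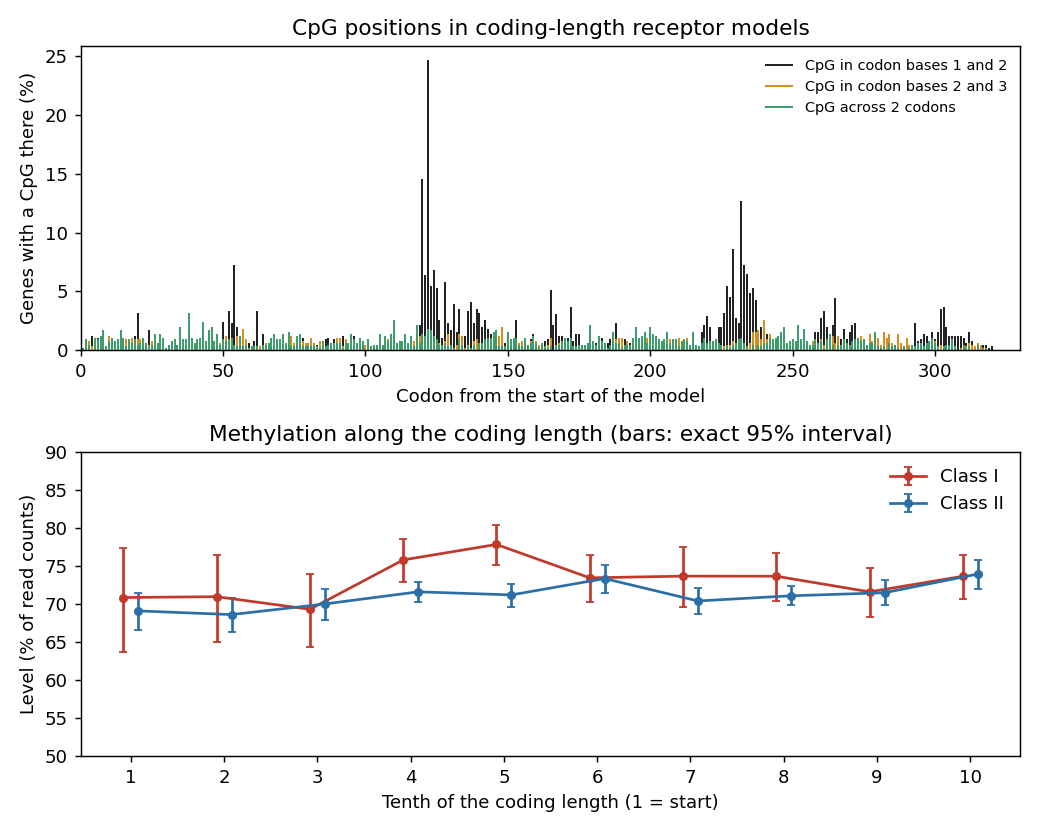
Top, the share of 661 coding-length receptor genes (vertical axis, percent) with a CpG at each codon (horizontal axis), by place in the codon. Bottom, the methylation level (vertical axis, percent of read counts, exact 95% intervals) in 10 equal parts of the coding length for both classes. The spike of 24.7% at codon 122 has no counterpart in the level, which stays between 68.6 and 77.9% in all 10 parts of both classes.

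Most of the genes that choose, carry and signal for the receptors had low starts, and some were as methylated as the receptors. Of 28 such genes, 21 were low (75%), 4 high, 0 intermediate and 3 unresolved, with a median of 7.15%. Over all autosomal protein-coding start windows 59.8% were low. For Gnal, Ebf2, Omp and Rtp1 the strand was not known, so the end with more CpGs was used. That end may not be the start, and the 59.8% rests on windows of known strand only. The lowest were Cbx5 (1.72%) and Lbr (2.51%), which encode heterochromatin and nuclear envelope proteins, and Eif2ak3 (2.82%), a stress kinase of the receptor feedback pathway. The highest were the chaperones of receptor transport Rtp2 (84.6%) and Rtp1 (77.9%) and the membrane protein Stoml3 (79.5%). Omp, the marker of mature olfactory neurons, was the other high gene at 74.9% (70.3 to 79.2). The 21 low windows each held more than 40 CpGs, and the 4 high ones held 4 to 36.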

How the data were processed

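Whole-genome bisulfite sequencing was done on 2 wild-type female epiblast samples. The authors deposited 1 table of read counts, methylated and unmethylated, for each strand of each CpG, not normalized. Per the submitters' processing notes the build was mm10 and the tools were cutadapt 1.3, Bismark 0.12.5 and Bowtie2 2.1.0. The sources used here do not say how the samples were combined or whether duplicates were removed. Duplicate reads, and reads that cover several CpGs of a region, would make intervals too narrow.

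From these counts, both strands of a CpG were summed. The autosomes held 133245671 read counts over 20383623 CpGs, a median of 6 per CpG, with 89.9% of CpGs read and 66.3% of counts methylated. A level is methylated over all read counts of a region, with a minimum of 20 and a Clopper-Pearson interval (scipy 1.17.1). Positions came from RefSeq GRCm38.p6, whose start windows placed every CpG at a CpG of the table. The script was tested on simulated data. The members, lists and rules were chosen with earlier results of these data known. Genes named are the 5 highest and lowest bodies, the 5 furthest above and below background, those with a CpG-rich end, class extremes, listed well-studied receptors, and the 3 highest and lowest clusters. Alternatives changed the read minimum, summary, strand, depth cap, models, windows, bins and thresholds.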

Additional observations from a re-analysis of the deposited data

How the results depend on the processing

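No paired analysis was possible because the table has no column per sample, and no sample could be left out for the same reason. With at least 50 read counts and 5 CpGs the medians were 73.1% for bodies, 74.2% for starts and 3.96 points for body minus background. Plus strand reads alone gave 74.3% for starts and 227 high bodies. Minus strand reads alone gave 72.7% for bodies, 75% for starts, 3.48 points over the background, 70.7% for receptor bins and 238 high bodies. Windows of 1000 bp on either side gave 70.8% for starts, and 200 kb bins gave 69.3% for receptor bins. A high call at 50% held 625 bodies and at 70% held 132. The other 30 values of these results stayed within the reported value's binomial interval, which for a median runs over genes and serves only as a yardstick, or for the count within 1.5 times. The count of high bodies was not run on means of CpG fractions, which have no interval. The difference between classes ran from 0.689 to 3.08 points.

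Of 215 differences between a named body and its background under an alternative, 13 changed sign. In 5 the interval of the reported difference lay clear of 0: with means of CpG fractions Olfr544 gave -3.10 points, with plus strand reads Olfr78 gave -0.364, and with 50 kb bins Olfr263 gave -0.720, Olfr1427 -1.53 and Olfr544 -6.60. In the other 8, of Olfr15, Olfr17, Olfr73 and Olfr1507, that interval held 0. The restriction to differences clear of 0 was chosen after all 13 values were seen, and without it all 13 would count as reversals. The cause was not tested. At this depth 485 of 884 bodies could not be called.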

Other observations

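Olfactory receptor pseudogenes, which were no members, lay near the level of the genes. Of 315 on the autosomes, 150 were measured, with a median of 73.3% and a range from 44.4 to 93.8%. The 6 receptors on the X chromosome were also left out, and their bodies ran from 60 to 89.5%, the highest, Olfr1325, resting on 19 read counts.

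Receptor families, as named by sequence likeness in the gene table, also varied. Of 18 families with at least 10 measured members, family 261 had the lowest median, 60.4% over 11 members, and family 31, a class I family, the highest, 79.2% over 11 members. Olfr94 belongs to family 256, whose 44 measured members had a median of 76.2%.

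Olfr1344, chosen after its values were seen, was intermediate over its body, with 177 of 523 read counts methylated (33.8%, 29.8 to 38.1) over 40 CpGs, against a background of 58.9%. Its 250 bp steps fell to 23.5% and reached 72.1 and 80% in 2 steps nearer the higher end.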
